A study of Danio rerio with 11 samples.

Results

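The genes described here handle fatty acids in the cell, from uptake to elongation, storage and entry into mitochondria. They were chosen by name from the deposited expression table: the families *slc27a*, *fabp*, *acsl*, *acsbg*, *elovl*, *plin*, *fads*, *cpt1* and *cpt2*, with *fasn*, *scd*, *scdb*, *lpl*, *cd36* and *acaca*. The rule uses no measured value, and it found 49 of the 24441 genes of the table. A row named *acly* was also looked for and matched none. Roles were assigned by gene name. By role, 7 of the 49 fall in uptake, 10 in activation to acyl-CoA, 11 in binding, 2 in synthesis, 12 in desaturation and elongation, 2 in the coat of lipid droplets and 5 in mitochondrial import.

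RNA-seq was performed on cells sorted by fluorescence from adult zebrafish. Melanoma cells (MA) were GFP+ cells from 5 tumors of 3 fish carrying BRAFV600E, p53 lf/lf and crestin:EGFP, and 3 of the tumors, MA3A, MA3B and MA3C, grew in a single fish. Premalignant melanocytes (MC_Het) were mCherry+ cells from the skin of 3 fish that were BRAFV600E/+, p53+/lf and mitfa+/- and carried mitfa:mCherry. Wild-type melanocytes (MC_WT) were mCherry+ skin cells from 3 AB* fish with mitfa:mCherry and neither lesion. Both melanocyte groups carried the MiniCoopR vector, which brings a *mitfa* minigene, and the BRAF transgene of MA and MC_Het is driven from the *mitfa* promoter. Only MA fish were p53 lf/lf, and MC_WT fish lacked BRAFV600E. Melanoma and melanocytes thus differ in genotype, reporter, sort and tissue of origin as well as in transformation, and these cannot be told apart.

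Fatty acids enter cells with the help of transport proteins of the *slc27a* family and of *cd36*, after lipoprotein lipase has freed them from circulating lipoproteins. Acyl-CoA synthetases trap and activate them, and fatty acid binding proteins carry them in the cytosol. Cells can also build fatty acids from acetyl-CoA through *acaca* and *fasn*, then desaturate and elongate them, and the carnitine palmitoyltransferases admit them to mitochondria for oxidation. The transcription factors of the SREBP family are known to drive much of the synthetic branch.

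The CPM of 1 read implied totals of 14718024 to 22612463 reads per library. These are the totals behind the CPM and not the number of reads sequenced. Values are CPM, the reads of a gene per 1e6 reads of its library, rescaled between samples by the median of ratios over genes, and each log2 fold change (log2FC) is on the scale of log2(rescaled CPM + 1), which understates changes of low genes. A gene was called at an adjusted p under 0.05 and an absolute log2FC above 1 in limma with Benjamini-Hochberg adjustment over all genes tested. Of 9 melanocyte markers 7 were higher in MA than in melanocytes, 1 was lower and *slc45a2* was not called. The lower marker was *oca2* (log2FC −1.96, adjusted p = 0.0024). Against MC_Het alone 4 of the 9 were higher and 1 was lower. The summed level of the 9 was 3061 to 10638 rescaled CPM in MA, 1289 to 5221 in MC_Het and 463 to 979 in MC_WT. The melanocyte libraries also held RNA of other skin cells. All 10 tested genes of a keratinocyte list were lower in MA, their sum being 147 to 505 rescaled CPM in MA, 49701 to 92217 in MC_Het and 65230 to 113627 in MC_WT. The macrophage list summed to 295 to 1182, 4251 to 6842 and 6015 to 7250 rescaled CPM in MA, MC_Het and MC_WT, with 7 of 7 tested genes lower in MA and *c1qc* at 0 reads in every sample. The adipocyte list, mostly *cfd*, summed to 18.2 to 49.8, 1402 to 2964 and 1120 to 2103 rescaled CPM in the same order. Of its 7 tested genes 3 were lower in MA and 1 was higher. The higher gene was *adipoqa*, with a mean of 4.99 rescaled CPM in MA and 0.14 in melanocytes. The part of these cells in the results below was not tested, and in bulk samples fewer cells of a type and less RNA per cell cannot be told apart.

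Melanoma was first compared with all 6 melanocyte samples. Of the 49 genes, 38 had enough reads to be tested. The filter asked for 1 CPM in 3 samples. *slc27a2a* and *acsbg1* passed it through MA, with fewer than 3 melanocyte samples at 1 CPM. Another 7 genes (*fabp7b*, *fabp11a*, *elovl5*, *elovl6l*, *fads2*, *fasn* and *lpl*) passed through melanocytes, with fewer than 3 tumors at 1 CPM. Such genes entered through the group where they were higher, so the direction of their difference is partly set by the filter. *acsbg1*, *fads2* and *lpl* still overlapped between the groups. In MA 4 were higher (*slc27a2a*, *acsl3b*, *fabp7a* and *scdb*) and 15 were lower, and 19 were not called. The 4 are 10.5% of those tested, beside 18.6% of all 14706 genes tested, and the 15 are 39.5%, beside 25.3% of all genes. All 7 genes that passed through melanocytes are among the 15, and *slc27a2a* is among the 4. The counts of calls and of groups without overlap are therefore not independent of the filter. The median log2FC was −0.51 for the 38 tested genes and 0.04 for all genes. The groups did not overlap for 3 genes that were higher in MA and 10 that were lower, where the shares over all genes were 12.5% and 18.6%. The split depends on the scaling: with CPM as deposited, which moved the median of all genes to 0.58, 8 were higher and 11 lower, beside 35.5% and 19.5% of all genes. The added genes were *acsl4b*, *cpt1aa*, *cpt2* and *fabp3*, and *acaca*, *acsbg2*, *acsl3a* and *lpl* were no longer called lower.

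**Figure D1:**
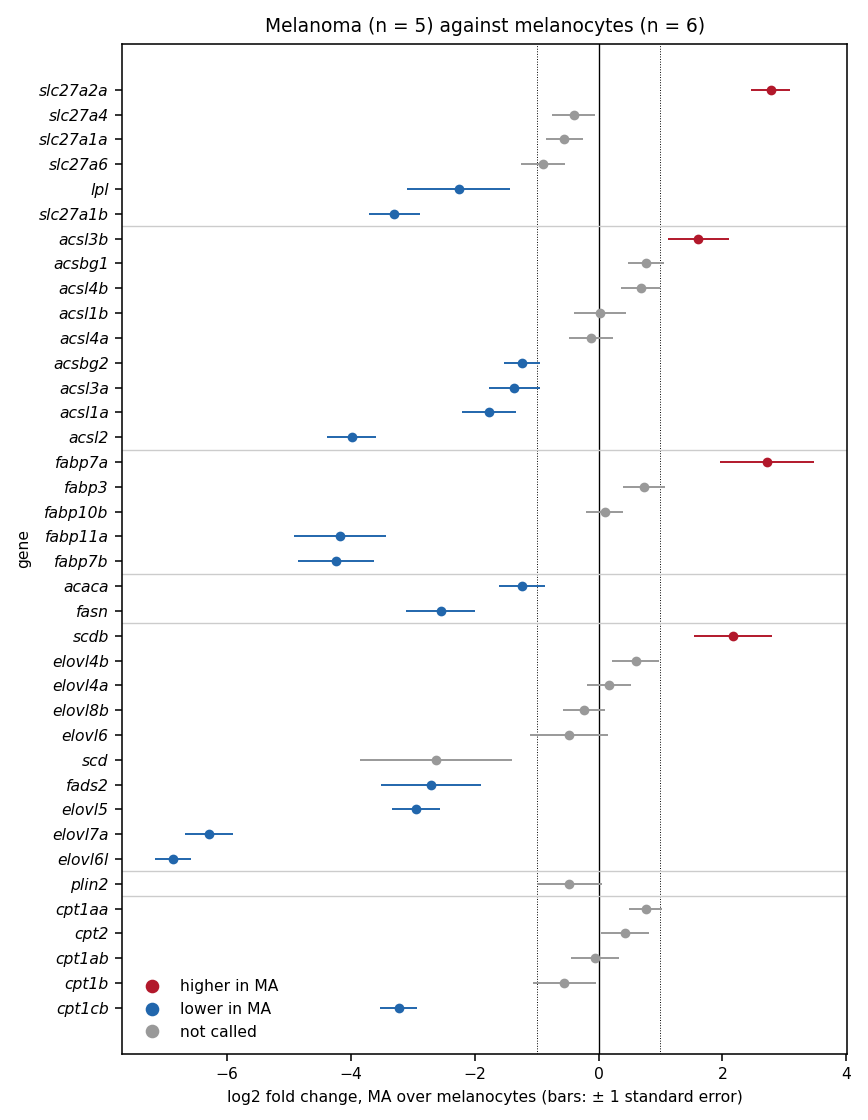
Log2 fold change of MA (n = 5) over melanocytes (n = 6) for the 38 tested genes, grouped from top to bottom by role (uptake, activation, binding, synthesis, desaturation and elongation, droplet coat, mitochondrial import). Points are limma estimates, bars are 1 standard error, and dotted lines mark a log2FC of 1 in each direction; *elovl6l* lies lowest at −6.87 and *slc27a2a* highest at 2.78.

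The genes called in MA were spread over the roles. Of all genes tested, 18.6% were called higher and 25.3% lower. In uptake 1 of 6 tested genes was higher and 2 were lower, in activation 1 of 9 was higher and 4 lower, and in binding 1 of 5 was higher and 2 lower. Both synthesis genes were lower. In desaturation and elongation 1 of 10 was higher and 4 were lower, in mitochondrial import 1 of 5 was lower, and the 1 tested droplet gene was not called.

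Among the uptake genes, the transporters *slc27a2a* and *slc27a1b* moved in opposite directions. *slc27a2a*, whose product transports fatty acids and activates very long chains, had 9.97, 5.76, 7.94, 13.5 and 9.93 rescaled CPM in MA1, MA2, MA3A, MA3B and MA3C. In melanocytes it had 0.33, 0.49 and 1.1 in MC_Het and 0.44, 0.18 and 0.42 in MC_WT. Every tumor was above every melanocyte sample, and the log2FC was 2.78 (SE 0.31, adjusted p = 2.7e-06). *slc27a1b*, a copy of the long-chain transporter gene *slc27a1*, had 1.89, 2.14, 9.43, 0.96 and 2.44 rescaled CPM in MA, against 20.2, 47.0 and 46.9 in MC_Het and 48.1, 22.4 and 36.3 in MC_WT. MA3A was the highest tumor and still lay below all melanocytes (log2FC −3.30, SE 0.41, adjusted p = 8.7e-06).

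The other copy, *slc27a1a*, overlapped between groups, at 6.91 to 20 rescaled CPM in MA and 14.7 to 29.8 in melanocytes, and its log2FC of −0.55 (SE 0.30, adjusted p = 0.14) was not called and turned to 0.08 with CPM as deposited. Its share of the summed CPM of both copies was 63.1 to 93.5% in MA, against 25.5 to 55.7% in MC_Het and 31.5 to 39.6% in MC_WT, so it was the larger of the pair in every tumor. *lpl*, encoding lipoprotein lipase, was 0.12, 0.00, 0.38, 8.25 and 4.85 rescaled CPM in MA, against 61.5, 3.41 and 19.4 in MC_Het and 5.11, 30.9 and 1.21 in MC_WT. The groups overlapped, with MA3B and MA3C within the melanocyte range. Its call (log2FC −2.26, SE 0.83, adjusted p = 0.033) was lost when any of MA1, MA2, MA3A, MC_Het1, MC_Het3 or MC_WT2 was left out, with adjusted p up to 0.084. *slc27a4* and *slc27a6* were not called, at −0.40 and −0.90, and *cd36* was too low to be tested, with at most 2.53 rescaled CPM, in MA3B.

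**Figure D2:**
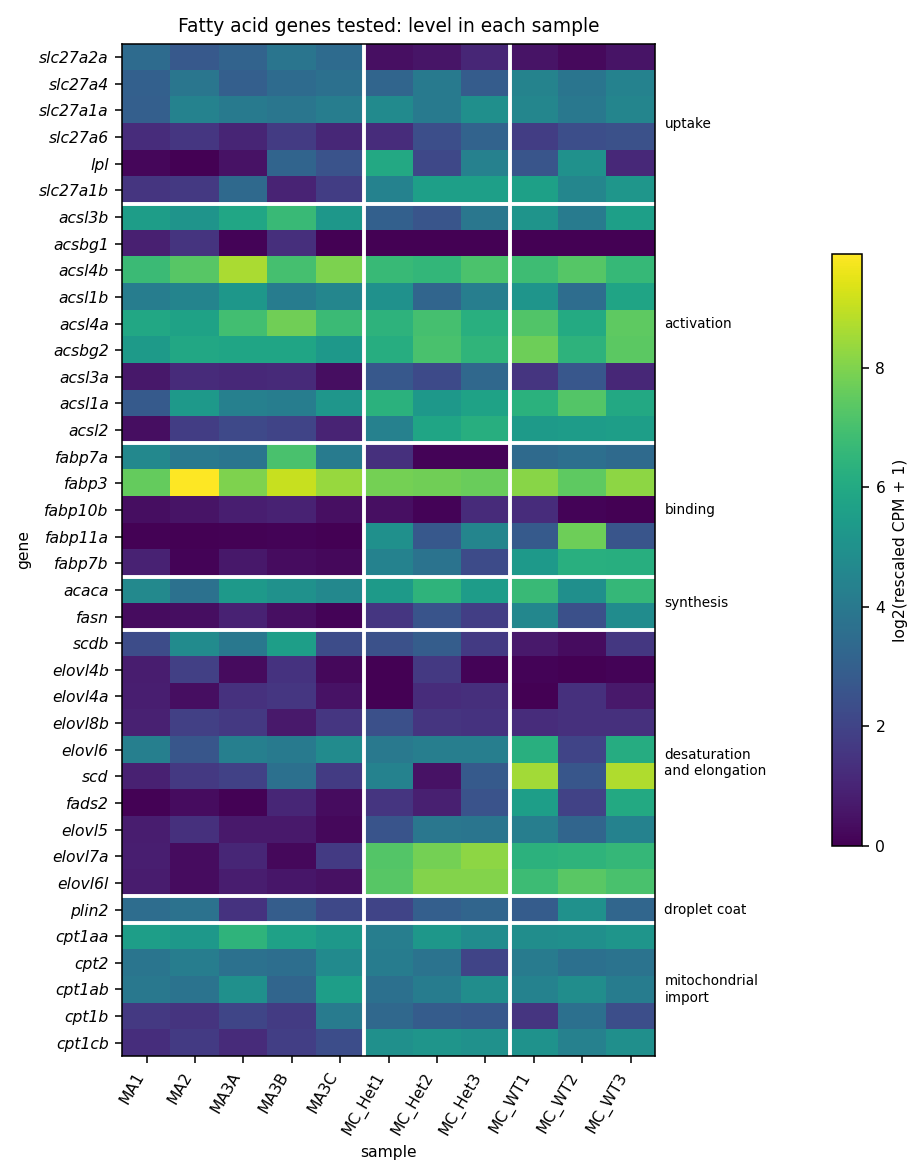
Level of each of the 38 tested genes (rows, grouped by role) in each of the 11 samples (columns, MA then MC_Het then MC_WT), as log2(rescaled CPM + 1). *elovl6l* and *elovl7a* are dark in all 5 tumors and bright in all 6 melanocyte samples, *slc27a2a* is the reverse, and *fabp3* is bright throughout.

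Acyl-CoA synthetases make up the activation step. *acsl3b*, a copy of *ACSL3*, which in mammals sits on the endoplasmic reticulum and nascent droplets, had 44.1, 34.1, 56.5, 104 and 36.6 rescaled CPM in MA. It had 7.17, 5.12 and 14.4 in MC_Het and 33.7, 16.6 and 47.4 in MC_WT. All tumors were above MC_Het, and 3 of the 5 lay below MC_WT3. The log2FC was 1.61 (SE 0.49, adjusted p = 0.012) against all melanocytes, 2.49 (SE 0.44, adjusted p = 0.00037) against MC_Het and 0.73 (SE 0.44, adjusted p = 0.19) against MC_WT. With the tumors of fish MA3 averaged, the first of these was 1.45 with an adjusted p of 0.058. Its copy *acsl3a* was lower in MA (log2FC −1.36, adjusted p = 0.011), at 0.30 to 1.30 rescaled CPM in MA, 3.65 to 9.24 in MC_Het and 1.15 to 5.38 in MC_WT.

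*acsl2* showed the largest difference of the activation genes on the log2(rescaled CPM + 1) scale. It had 0.28, 2.48, 3.61, 3.07 and 1.00 rescaled CPM in MA, against 19.5, 55.9 and 73.0 in MC_Het and 41.3, 43.2 and 45.7 in MC_WT. No tumor came near the melanocyte range, and the log2FC was −3.99 (SE 0.40, adjusted p = 8.1e-07). *acsl1a*, from a family whose mammalian member feeds oxidation and triglyceride synthesis, was lower in MA at 5.95 to 39.9 rescaled CPM, against 37.9 to 151 in melanocytes (log2FC −1.77, SE 0.43, adjusted p = 0.0032). Here MA2 was just above MC_Het2. *acsbg2*, a bubblegum-type synthetase, was 37.8 to 59.7 rescaled CPM in MA and 70.6 to 212 in melanocytes, without overlap (log2FC −1.23, SE 0.29, adjusted p = 0.0025).

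*acsl4b*, a copy of the gene for the synthetase that prefers arachidonic acid in mammals, was not called (log2FC 0.68, SE 0.31, adjusted p = 0.075). It had 107, 158, 403, 126 and 246 rescaled CPM in MA, against 102, 92.3 and 136 in MC_Het and 114, 156 and 99.5 in MC_WT, so that MA2, MA3A and MA3C exceeded every melanocyte sample. *acsl4a* and *acsl1b* were at −0.12 and 0.03. *acsbg1* had 0 reads in all 6 melanocyte samples and up to 42 reads in a tumor. It passed the filter through MA alone, and its log2FC of 0.76 is set by the pseudocount. It was called higher with pseudocounts of 0.1 and 0.5, by edgeR and by DESeq2. *acsl5* was too low to be tested.

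Binding proteins gave the strongest contrast between gene copies. *fabp7a*, a copy of the brain-type binding protein gene that marks glia and neural crest derivatives in vertebrates, had 23.6, 15.2, 13.4, 132 and 16.5 rescaled CPM in MA. It had 1.59, 0.08 and 0.07 in MC_Het and 9.86, 11.2 and 9.71 in MC_WT. The tumors lay above all melanocytes, MA3B far above the rest, and MC_Het lay below MC_WT. The log2FC was 2.72 (SE 0.76, adjusted p = 0.0071) against all melanocytes, 4.21 (SE 0.63, adjusted p = 9.1e-05) against MC_Het and 1.24 (SE 0.63, adjusted p = 0.12) against MC_WT. DESeq2 on the recovered reads returned no adjusted p for the first of these.

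The other copy, *fabp7b*, was nearly silent in tumors. It had 0.92, 0.08, 0.57, 0.27 and 0.15 rescaled CPM in MA, against 20.1, 12.7 and 3.77 in MC_Het and 38.7, 74.0 and 72.9 in MC_WT. The 3 groups did not overlap, with MA lowest and MC_WT highest (log2FC −4.24 against all melanocytes, SE 0.61, adjusted p = 3.2e-05). A list of Schwann cell markers summed to 58.5 to 252 rescaled CPM in MA, 925 to 2471 in MC_Het and 2480 to 3860 in MC_WT, mostly from *pmp22b*. The myelin genes *mbpa* and *mpz* of that list averaged 0.41 and 0.23 in MA, 11.3 and 2.58 in MC_Het, and 3.86 and 0.08 in MC_WT. The more abundant *mbpb* and *pmp22b* averaged 31.5 and 101 in MA, 144 and 1409 in MC_Het, and 163 and 2801 in MC_WT. None of these genes was called between the genotypes. The part of such cells in the *fabp7b* difference was not tested. *fabp7a* made up 95.9 to 99.8% of the summed CPM of both copies in MA, against 0.64 to 7.34% in MC_Het and 11.8 to 20.3% in MC_WT.

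**Figure D3:**
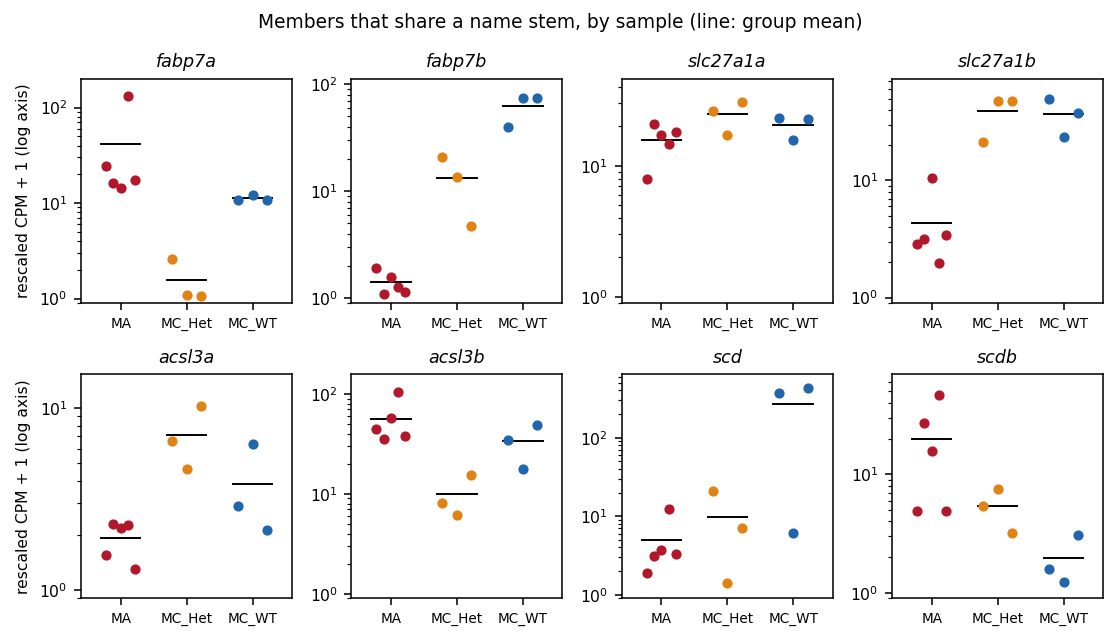
Rescaled CPM + 1 (log axis) of 4 pairs of genes that share a name stem, per sample, with MA left, MC_Het in the middle and MC_WT right; points are samples and lines are arithmetic group means. *fabp7a* is above *fabp7b* in every tumor and below it in every melanocyte sample, and the ranges of *slc27a1b* in MA and melanocytes are apart while those of *slc27a1a* overlap.

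*fabp3*, the heart-type binding protein gene, was the most abundant of the 49 genes per length, with mean RPKM (CPM per kilobase of gene length, rescaled) of 540 in MA, 256 in MC_Het and 299 in MC_WT. It had 190, 956, 251, 531 and 327 rescaled CPM in MA, against 230, 214 and 197 in MC_Het and 278, 173 and 298 in MC_WT. MA2, MA3B and MA3C exceeded every melanocyte sample while MA1 and MA3A did not (log2FC 0.74, SE 0.34, adjusted p = 0.085). *fabp11a*, a fish gene related to the adipocyte and macrophage binding protein of mammals, had at most 2 reads in any tumor, against 30.7, 5.60 and 21.8 rescaled CPM in MC_Het and 6.06, 207 and 5.13 in MC_WT. Tumors and melanocytes did not overlap, and MC_WT2 was far above the other melanocyte samples. Its log2FC of −4.18 (SE 0.74, adjusted p = 0.00023) depends on the pseudocount. The intestinal and hepatic members *fabp1a*, *fabp1b.1*, *fabp2*, *fabp6* and *fabp10a*, and *fabp11b*, were too low to be tested; *fabp1b.1* and *fabp6* had 0 reads in all 11 samples, and the liver and gut marker list summed to 0.25 to 2.52 rescaled CPM in MA and 1.92 to 32.4 in melanocytes.

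Both synthesis genes were lower in MA. *fasn*, which encodes fatty acid synthase, had 0.24, 0.29, 0.91, 0.31 and 0.07 rescaled CPM in MA, against 1.99, 4.95 and 2.53 in MC_Het and 23.1, 4.41 and 27.5 in MC_WT. Every tumor was below every melanocyte sample, and within MC_WT, MC_WT2 lay at the level of MC_Het. The log2FC was −2.55 (SE 0.56, adjusted p = 0.0014) against all melanocytes, −1.57 (SE 0.51, adjusted p = 0.022) against MC_Het and −3.53 (SE 0.51, adjusted p = 7.3e-05) against MC_WT. Against MC_Het the adjusted p was 0.095 without MC_Het2 and 0.057 with the tumors of fish MA3 averaged. *acaca*, the acetyl-CoA carboxylase that makes malonyl-CoA for both synthesis and elongation, had 24.4, 12.1, 39.7, 31.6 and 23.8 rescaled CPM in MA, against 41.5, 84.7 and 43.5 in MC_Het and 103, 29.2 and 95.2 in MC_WT. MC_WT2 lay within the range of the tumors (log2FC −1.24, SE 0.37, adjusted p = 0.011).

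On the log2(rescaled CPM + 1) scale the largest differences of the 38 tested genes were in elongation, while in DESeq2, which adds no pseudocount, *fabp11a* at −10.54 was beyond *elovl6l* at −8.52 and *elovl7a* at −7.45. *elovl6l*, a gene related to the elongase *elovl6*, had 0.68, 0.25, 0.72, 0.50 and 0.37 rescaled CPM in MA, against 161, 267 and 268 in MC_Het and 110, 165 and 134 in MC_WT. *elovl7a*, from the family that extends saturated long chains in mammals, had 0.80, 0.25, 1.1, 0.15 and 2.19 rescaled CPM in MA, against 151, 228 and 298 in MC_Het and 80.9, 84.8 and 96.0 in MC_WT. The tumors lay far below all melanocytes for both genes. The log2FC was −6.87 (SE 0.29, adjusted p = 6.1e-11) for *elovl6l* and −6.29 (SE 0.39, adjusted p = 3.7e-09) for *elovl7a*, while the median of the 10 tested keratinocyte genes was −7.55. *elovl5*, which extends polyunsaturated chains, was lower as well, at 0.15 to 1.56 rescaled CPM in MA and 4.91 to 19.9 in melanocytes (log2FC −2.95, SE 0.39, adjusted p = 1.3e-05).

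*elovl6* itself, which extends palmitate, overlapped between tumors and melanocytes (log2FC −0.47, SE 0.63, adjusted p = 0.55), with 18.3, 5.34, 18.4, 15.6 and 26.5 rescaled CPM in MA. Thus *elovl6* was 95.5 to 98.6% of the summed CPM of *elovl6* and *elovl6l* in MA, against 6.18 to 8.53% in MC_Het and 1.87 to 40.4% in MC_WT. *elovl4a*, *elovl4b* and *elovl8b* stayed below 5 rescaled CPM in every sample and were not called, and *elovl2* and *elovl8a* were not tested. *elovl2* had 0.60, 0.29, 1.86, 1.07 and 0.19 rescaled CPM in MA, against 0.13, 0.00 and 0.07 in MC_Het and 0.00 in each MC_WT sample.

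Of the desaturase genes *scdb*, a copy of the stearoyl-CoA desaturase gene, was called higher in MA. It had 3.94, 26.2, 14.7, 45.5 and 3.89 rescaled CPM in MA, against 4.45, 6.58 and 2.19 in MC_Het and 0.58, 0.24 and 2.05 in MC_WT. MA2, MA3A and MA3B were above every melanocyte sample, while MA1 and MA3C lay within the range of MC_Het. The log2FC was 2.17 (SE 0.63, adjusted p = 0.0094) against all melanocytes, 2.91 (SE 0.70, adjusted p = 0.0037) against MC_WT and 1.43 (SE 0.70, adjusted p = 0.11) against MC_Het. *fads2*, which in zebrafish introduces double bonds into polyunsaturated chains, was lower in MA (log2FC −2.71, SE 0.81, adjusted p = 0.011). It had 0.04, 0.25, 0.04, 1.11 and 0.26 rescaled CPM in MA, against 1.92, 0.81 and 4.72 in MC_Het and 45.8, 2.90 and 64.5 in MC_WT, and MA3B was above MC_Het2. *scd* was not called in limma against all melanocytes (log2FC −2.63, SE 1.23, adjusted p = 0.084), while edgeR (−5.13, adjusted p = 0.013) and DESeq2 (−5.16, adjusted p = 0.00032) called it lower in MA.

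Of the droplet coat and mitochondrial import genes 1 was called, *cpt1cb*, which was placed in its role by name alone. *plin2*, which coats lipid droplets, overlapped fully between the groups, at 10.6, 12.4, 1.75, 6.56 and 3.37 rescaled CPM in MA, against 3.12, 6.90 and 8.28 in MC_Het and 6.43, 31.2 and 8.51 in MC_WT. Its log2FC of −0.47 (SE 0.52, adjusted p = 0.46) was not called and was 0.09 with CPM as deposited. *plin1*, the droplet coat gene of adipocytes, had at most 0.46 rescaled CPM in any sample and was not tested. Among the carnitine palmitoyltransferases, *cpt1cb* was lower in MA, with 1.45, 2.23, 1.33, 2.57 and 4.0 rescaled CPM in MA, against 30.4, 34.4 and 31.0 in MC_Het and 31.7, 19.5 and 29.5 in MC_WT (log2FC −3.23, SE 0.30, adjusted p = 3.5e-07). The 6 melanocyte samples were close to each other and apart from the tumors. *cpt1aa*, a copy of the liver-type gene that controls entry to mitochondria, had 46.1, 37.5, 84.9, 49.6 and 37.4 rescaled CPM in MA, against 17.9, 37.1 and 27.5 in MC_Het and 27.7, 29.4 and 34.4 in MC_WT. Every tumor was above every melanocyte sample, by little for MA2 and MA3C, and the log2FC of 0.76 (SE 0.27, adjusted p = 0.027) is below the fold asked for a call. *cpt1ab*, *cpt1b* and *cpt2* had log2FC of −0.06, −0.55 and 0.43 and were not called.

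When MA was set against each melanocyte genotype apart, in comparisons that share the 5 tumors, 2 of the 38 tested genes were higher and 14 lower against MC_WT, beside 17.2% and 24.1% of all genes. Against MC_Het 3 were higher and 12 lower, beside 18.1% and 24.2% of all genes. MA did not overlap with MC_WT for 5 genes that were higher and 13 that were lower (19.3% and 24.6% of all genes), and with MC_Het for 4 and 12 (18.3% and 23.2%). The filter was that of the pooled comparison. *fabp7b*, *fabp11a*, *elovl5*, *elovl6l* and *fasn*, called lower against both genotypes, passed it through melanocytes. So did *fads2*, called lower against MC_WT, and *lpl*, called lower against MC_Het, while *slc27a2a* passed through MA. These counts are therefore not independent of the filter. With CPM as deposited 7 were higher and 12 lower against MC_WT (34.5% and 17.8% of all genes), and 8 were higher and 10 lower against MC_Het (32.4% and 19.2%). With the tumors of fish MA3 averaged, *acsl1a* and *fasn* were no longer called against MC_Het, which left 10 lower. Without MA1 the higher count against MC_Het was 5, with *scdb* and *fabp3* added. *slc27a2a* was called higher in both, at 2.91 against MC_WT and 2.65 against MC_Het, *scdb* against MC_WT, and *fabp7a* and *acsl3b* against MC_Het. *scd*, chosen after its values were seen, was lower against MC_WT (log2FC −4.67, SE 1.19, adjusted p = 0.0056), and its value against MC_Het was −0.59 (SE 1.19, adjusted p = 0.71). *fads2* had −4.15 (SE 0.74, adjusted p = 0.00041) against MC_WT and −1.27 (SE 0.74, adjusted p = 0.17) against MC_Het.

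MC_Het and MC_WT are sorted skin cells that differ in BRAFV600E and in partial loss of p53 and *mitfa*, before a tumor forms. MC_WT fish were of the AB* strain, and MC_Het fish came from a cross of that reporter line to BRAFV600E, p53 lf/lf, mitfa-/- fish. Lesions, background and the share of other skin cells in the libraries cannot be told apart. Of the 49 genes 34 were tested, and in limma 0 were higher and 1, *fabp7a*, was lower in MC_Het, beside 0.353% and 0.161% of all 13044 genes tested. At an unadjusted p under 0.05 the tested genes held 3 higher and 6 lower, beside 868 and 777 of all genes. DESeq2 on the recovered reads called 1 higher (*elovl7a*, log2FC 1.37) and 5 lower (*fabp7a*, *fabp7b*, *acsl3b*, *fads2* and *fasn*), and edgeR called 0. The shares of all genes given here are those of limma. The share that DESeq2 called of all genes is not given, so its counts cannot be read against it. The median log2FC was −0.28 for the tested genes and −0.00 for all genes. The groups did not overlap for 3 genes that were higher and 3 that were lower, where the shares over all genes were 9.15% and 8.95%.

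*fabp7a* had 1.59, 0.08 and 0.07 rescaled CPM in MC_Het, against 9.86, 11.2 and 9.71 in MC_WT (log2FC −2.96, SE 0.54, adjusted p = 0.049). These are 24, 1 and 1 reads in MC_Het, against 135, 185 and 161 in MC_WT. The gene passed the filter through MC_WT, so the direction of its difference is partly set by the filter. Its log2FC depends on the pseudocount, at −3.60 with 0.5 and −4.79 with 0.1. The call lies at the threshold, and it was lost in 5 of the 6 fits that left out a sample, with adjusted p up to 0.23, and held without MC_Het1. *fabp7b* also had all MC_Het samples below all MC_WT samples and was not called (log2FC −2.44, SE 0.54, adjusted p = 0.098). *acsl3b* was likewise without overlap at −1.76 (SE 0.51, adjusted p = 0.2). In the other direction *elovl7a* had every MC_Het sample above every MC_WT sample (log2FC 1.31, SE 0.29, adjusted p = 0.098), and without MC_Het1 it was called (adjusted p = 0.048). *scdb* and *elovl8b* were the other genes without overlap, at 1.49 (adjusted p = 0.32) and 0.47 (adjusted p = 0.75). Lack of overlap between 3 and 3 samples was met by 9.15% of all genes in the higher and 8.95% in the lower direction. The 3 and 3 of 34 tested members lie near these shares.

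Several genes, chosen after their values were seen, divided the wild-type samples. *scd*, the stearoyl-CoA desaturase that makes oleate, had 19.7, 0.41 and 6.02 rescaled CPM in MC_Het, against 373, 5.20 and 427 in MC_WT, with 0.88, 2.14, 2.74, 11.5 and 2.30 in MA. MC_WT1 and MC_WT3 stood far above all other samples, and MC_WT2 lay within the range of MC_Het. *elovl6* had 15.0, 18 and 17.7 rescaled CPM in MC_Het, against 74.4, 3.14 and 68.5 in MC_WT, and here MC_WT2 was the lowest of the 11 samples. *fasn*, *fads2* and *acaca* showed the same order, MC_WT1 and MC_WT3 high and MC_WT2 low, whereas *elovl6l* did not, at 110, 165 and 134, and the desaturase gene *scdb* was low in all 3, at 0.58, 0.24 and 2.05. The order was not confined to one role: *acsbg2* had 212, 83.9 and 171 rescaled CPM in MC_WT1, MC_WT2 and MC_WT3, *acsl4a* 148, 64.9 and 175, *acsl1b* 35.2, 10.6 and 53.7, and *acsl3b*, *elovl5* and *slc27a1b* were also lowest in MC_WT2. Nor was it general: *acsl1a*, *acsl3a*, *acsl4b*, *fabp11a*, *plin2*, *cpt1ab*, *cpt1b* and *lpl*, among others, were highest in MC_WT2 of the 3. With 3 samples many genes are lowest in any given one, and the share of all genes lowest in MC_WT2 is not given.

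limma with all samples called none of these differences between the genotypes: the log2FC of MC_Het over MC_WT was −4.08 (SE 1.49, adjusted p = 0.3) for *scd*, −2.87 (SE 0.96, adjusted p = 0.24) for *fads2* and −1.96 (SE 0.67, adjusted p = 0.26) for *fasn*. It was −0.64 (SE 0.93, adjusted p = 0.82) for *elovl6*, which like *scd* is described because of its values. Without MC_WT2, limma called these 4 lower in MC_Het, at −6.09 (adjusted p = 0.0058) for *scd*, −4.15 (adjusted p = 0.0074) for *fads2*, −2.72 (adjusted p = 0.039) for *fasn* and −2.02 (adjusted p = 0.02) for *elovl6*, and *fabp7a* then had an adjusted p of 0.056. The 4 were set together for their low value in MC_WT2, so their calls without it follow in part from that choice. None of the 4 was called when any other melanocyte sample was left out. *elovl6* was then at 0.07 without MC_WT1 and 0.01 without MC_WT3. The share of all genes called without MC_WT2 is not given. With all samples DESeq2 called *fads2* (−3.93, adjusted p = 0.00055) and *fasn* (−2.55, adjusted p = 0.015) lower in MC_Het and did not call *scd* (adjusted p = 0.074) or *elovl6* (adjusted p = 0.35), so the calls depend on both the tool and MC_WT2. That sample also had the highest *fabp11a*, *plin2* and *acsl1a* of the melanocyte samples, and several marker lists set it apart from MC_WT1 and MC_WT3. Its iridophore sum was 440 rescaled CPM, 245 of it from the purine synthesis gene *paics*, against 193 and 160 in MC_WT1 and MC_WT3. Its xanthophore sum was 142 against 58.7 and 66.7, and its endothelial sum 53.2 against 28.6 and 26.9. Its fibroblast and osteoblast sum was 699 against 1398 and 1640, and its erythrocyte sum 32.1 against 185 and 120. The keratinocyte sum did not set it apart, at 65230 in MC_WT2, 69469 in MC_WT3 and 113627 in MC_WT1. The part of these cells in the values of MC_WT2 was not tested.

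**Figure D4:**
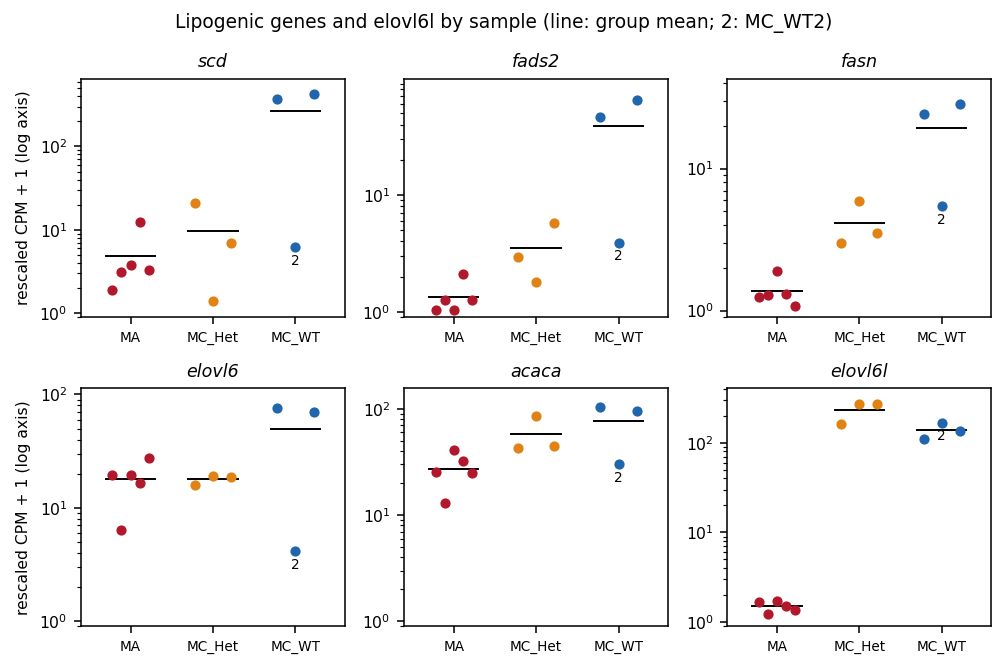
Rescaled CPM + 1 (log axis) of *scd*, *fads2*, *fasn*, *elovl6*, *acaca* and *elovl6l* per sample, with MA left, MC_Het in the middle and MC_WT right; points are samples, lines are arithmetic group means, and 2 marks MC_WT2. For *scd* the wild-type samples MC_WT1 and MC_WT3 have 373 and 427 rescaled CPM and MC_WT2 has 5.20, a division that *elovl6l* does not show.

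Regulators and partners of these enzymes were followed in 7 lists of pathway genes. These lists were drawn up with the results of these data known. Some of their genes passed the filter through melanocytes, with fewer than 3 tumors at 1 CPM. Among them were *ldlra*, *ldlrb*, *lipia*, *cidec*, *g0s2*, *dgat2*, *mid1ip1a*, *pparg* and *acot11b*. The calls and medians of the lists are therefore not independent of the filter. Their calls stand beside 18.6% higher and 25.3% lower in MA than in melanocytes among all 14706 genes tested. In the list of lipid regulators (median log2FC −0.70) 1 of 14 tested genes was higher in MA than in melanocytes, the retinoid receptor gene *rxrab* (log2FC 1.18, adjusted p = 0.013). Lower were *srebf2*, an SREBP gene (−2.88, adjusted p = 0.00089), *scap*, the SREBP escort (−2.22, adjusted p = 0.0013), and *pparg* (−1.69, adjusted p = 0.0028). *srebf1*, the SREBP gene tied to fatty acid synthesis, was not called (−1.11, adjusted p = 0.16). Some regulators showed the same division of the wild-type samples, as *srebf1*, with 3.45, 3.90 and 1.57 rescaled CPM in MC_Het, against 22.1, 4.41 and 25.3 in MC_WT, and *insig1*, an SREBP target that retains SREBP in the endoplasmic reticulum, with 27.3, 81.9 and 26.1 in MC_Het, against 402, 23.7 and 494 in MC_WT. Others were highest in MC_WT2, with *pparg* at 2.26, 11.5 and 1.21, *mlx* at 7.96, 22.5 and 16.5 and *rxraa* at 12.9, 29.4 and 18 rescaled CPM in MC_WT1, MC_WT2 and MC_WT3. *aacs*, which activates acetoacetate for lipid synthesis, had 14.6, 4.30 and 0.75 in MC_Het, against 450, 10.3 and 479 in MC_WT.

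Of 9 tested partners of synthesis (median log2FC 0.28), 2 were higher and 4 lower in MA. The mitochondrial citrate carrier *slc25a1a* was higher (log2FC 2.65, SE 0.38, adjusted p = 3.4e-05), with 9.93 to 20.4 rescaled CPM in MA and 0.29 to 4.30 in melanocytes, and so was *mcat* (1.26, adjusted p = 0.013), a gene of mitochondrial fatty acid synthesis. The carboxylase regulator *mid1ip1a* was lower (−7.05, SE 0.26, adjusted p = 1.9e-11), at 0.38 to 0.84 rescaled CPM in MA and 135 to 322 in melanocytes. In the elongation cycle *hsd17b12a*, a copy of the ketoacyl-CoA reductase gene, was the 1 of 5 tested genes called, lower at −4.27 (adjusted p = 9.5e-08). The median of the list was 0.33. The other copy, *hsd17b12b*, was not called (0.33, adjusted p = 0.52), with a mean of 51.6 rescaled CPM in MA and 48 in melanocytes.

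Most lipoprotein-handling genes tested were lower in MA, beside 25.3% of all genes, and 2 of 22 oxidation genes were called. Of 10 tested lipases and lipoprotein receptors (median log2FC −4.21) 7 were lower and 0 higher, led by the apolipoprotein *apoeb* (−6.93, adjusted p = 5.3e-08), with the endothelial lipase gene *lipg* at −5.63 and the receptor genes *ldlra* and *vldlr* at −4.80 and −4.42. Of 11 tested genes of triglyceride storage and lipolysis (median −1.02) 5 were lower and 0 higher, among them *dgat1b* (−4.39, adjusted p = 9.5e-08), which makes triglyceride, and the lipolysis inhibitor *g0s2* (−3.40). *ldlra*, *ldlrb* and *lipia* of the lipase and receptor list and *cidec*, *g0s2* and *dgat2* of the storage list passed the filter through melanocytes. The direction of their difference is partly set by the filter. Of 22 tested genes of beta-oxidation (median −0.13) 2 were lower, *etfb* (−1.75, adjusted p = 5.1e-06) and *decr1* (−1.05, adjusted p = 0.047), and 0 were higher. Of 16 tested acyl-CoA binding proteins and thioesterases (median 0.20) 2 were lower, *acot11a* (−2.62) and *acot11b* (−1.96). At an unadjusted p under 0.05 in limma, 2 of the acyl-CoA binding list and 0 of the other lists named in this paragraph were higher in MA. Of all 14706 genes 4005 were. At the same p, 9 of the 10 lipases and receptors, 6 of the 11 storage genes, 4 of the 22 oxidation genes and 5 of the 16 acyl-CoA genes were lower. Of all genes 4417 were lower. With edgeR and DESeq2 the higher calls over these 4 lists were 0 and 1. Between MC_Het and MC_WT limma called 0 of the 85 tested genes of the 7 lists, beside 0.353% higher and 0.161% lower of all genes. At an unadjusted p under 0.05 in limma, 5 were higher and 11 lower in MC_Het, beside 868 and 777 of all 13044 genes. edgeR called 0 of the 85, and DESeq2 called *aacs*, *srebf1* and *srebf2* lower, with no share of all genes called by DESeq2 beside it.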

How the data were processed

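Single-end 50 bp reads of amplified cDNA from sorted cells were aligned by the authors to GRCz11 with STAR, and RSEM and DESeq2 are also named in the submitters' processing notes. The authors deposited CPM per Ensembl gene. Their deposited RPKM table holds these CPM over a gene length. The program that counted the reads in this table is not given in the sources used here. Of 24441 genes in 24874 rows, 236 were listed more than once with equal values and were taken once. Every value was a whole number of reads (100%, within 0.01 read) once divided by the CPM of 1 read, 0.0442 to 0.0679, which gave the total of reads behind the CPM of each library. Reads are amplified copies, so depth bounds counting error only.

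CPM were divided by median-of-ratios factors (1.19 to 1.36 in MA, 0.69 to 0.89 in melanocytes). limma 3.58.1 (R 4.3.3, lmFit, eBayes with trend) was run 2-sided on log2(rescaled CPM + 1) for genes that reached 1 CPM in 3 or more samples of a fit, and p values were adjusted by Benjamini-Hochberg over all of them. MA was compared with all melanocytes, MC_Het with MC_WT in a fit of their own, and MA against either genotype from 1 joint fit over 3 groups. Each tumor was a sample, so p values do not allow for the 3 tumors of fish MA3. All samples are labelled with run number 1, and no batch term was used. Alternatives were edgeR 4.0.16, DESeq2 1.42.0 (both on recovered reads), other scalings, pseudocounts and filters, the RPKM table and left-out samples.

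The genes and the marker and pathway lists were chosen with earlier results of these data known. Genes were named by rule: per role, the most abundant gene and those called with the greatest rise and fall, those called between genotypes, and the called pathway genes with the largest changes. Others, among them *scd* and *elovl6*, were chosen after their values were seen. The authors' ATAC-seq was not analysed here. No sequences or coordinates are given, since the reference tables used here are of another build.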

Additional observations from a re-analysis of the deposited data

Results flagged for a closer look

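*fabp7a* had 132 rescaled CPM in MA3B, against 13.4 to 23.6 in the other 4 tumors, a gap that was large for the spread of the group. *cpt1b* had 16.6 rescaled CPM in MA3C, against 1.77 to 3.19 in the other 4. *fads2* had 1.11 rescaled CPM in MA3B, against 0.04 to 0.26 in the other 4. Such a gap is found by chance in about 1 of 20 groups, and it was met by 3 of the 38 tested genes. The melanocyte groups have 3 samples each and were not searched for gaps of this kind.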

How the results depend on the processing

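Tumors of the same fish, the genotypes, the sort and the other skin cells in the melanocyte libraries limit these comparisons. The counts from DESeq2 in this section have no share of all genes beside them. For MA against all melanocytes the counts of higher and lower members were 8 and 11 with CPM as deposited, and 0 and 4 at an adjusted p under 1e-6; over the fits without a replicate they were 4 and 14 to 16. Over all settings at the main thresholds, *scdb* and *slc27a2a* were called higher and 10 genes lower in each. With CPM as deposited the log2FC of *plin2* and *slc27a1a* turned to 0.09 and 0.08. Against MC_WT the higher count was 7 with CPM as deposited, 4 with DESeq2 and 0 at 1e-6, where the lower count was 3, and *slc27a1a* turned to 0.26 with CPM as deposited; without a replicate the counts were 2 and 13 to 15. Against MC_Het the higher count was 8 with CPM as deposited, 5 with DESeq2, 0 at 1e-6 and 3 to 5 without a replicate, and the lower count was 2 at 1e-6 and 10 to 14 without a replicate. There *plin2*, at 0.01, turned to −0.02 and −0.01 with pseudocounts of 0.1 and 0.5 and ranged from −0.34 to 0.34 without a replicate, and *scd* from −1.63 to 0.31, turning without MC_Het1. The causes were not tested.

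Between MC_Het and MC_WT, DESeq2 called 1 member higher and 5 lower. The lower count was 0 with CPM as deposited, pseudocounts of 0.1 and 0.5, edgeR, every gene kept, or an adjusted p under 1e-6. It was also 0 with a required mean of 5 CPM, a filter that *fabp7a* did not pass. Without a replicate the higher count was 0 to 1 and the lower count 0 to 4. Some directions turned when a replicate was left out: *acaca* ranged from −0.88 to 0.02, *acsl4b* from −0.31 to 0.03, *cpt1aa* from −0.43 to 0.07, *elovl6* from −2.02 to 0.07, *fabp11a* from −1.19 to 1.36 and *slc27a1b* from −0.23 to 0.46. With the replicate block the lower count was 0 and *fabp7a* had an adjusted p of 0.14. The block moved the SE from 1.49 to 0.67 for *scd* and from 0.96 to 0.66 for *fads2*. For *fasn* the SE went from 0.67 to 0.72, and none of these genes was called. Same-numbered samples correlated at −0.01, −0.12 and −0.07 over all genes tested, with group means removed. Such a correlation cannot show whether single genes follow the replicate number, which was not tested.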
